A study of Homo sapiens with 6 samples.

Results

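The 9 genes described here bear on how leukaemia cells respond to drugs and were followed in SEM cells, a human cell line from a B-cell precursor leukaemia with the fusion gene KMT2A::AFF1. They are NR3C1, FKBP5 and TSC22D3 (the glucocorticoid receptor and its targets), NT5C2, TPMT and HPRT1 (thiopurine handling) and FPGS, SLC19A1 and ABCC1 (methotrexate handling). The genes were chosen by name, each name fell on 1 Ensembl ID, and they are 9 of the 62703 gene IDs in the count files. Total RNA was sequenced from 3 KD libraries, transfected with 2 Dicer-substrate siRNAs over the back-splice junction of AK_8_2, a circular RNA of the fusion gene, and from 3 NC libraries, transfected with a non-targeting duplex. Cells of both groups were transfected with a lipid reagent 2 times, 24 h apart, and both groups come from the same line and carry the fusion. The labels list no treatment with a glucocorticoid, a thiopurine or methotrexate, so the values describe cells with no listed drug. Gene counts pool linear and circular transcripts and do not show how far AK_8_2 was silenced.

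These genes belong to 3 drug pathways of the treatment of lymphoblastic leukaemia. Glucocorticoids enter lymphoid cells and bind the receptor NR3C1, a transcription factor held ready by heat shock chaperones, and the bound receptor changes transcription and can start cell death. Thiopurines are prodrugs that HPRT1 turns into nucleotides, while TPMT and NT5C2 act against that activation. Methotrexate, an antifolate, enters through the carrier SLC19A1, is kept inside the cell by the glutamate tail that FPGS adds, and can be pumped out by ABCC1.

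None of the 9 genes passed the test for a difference between KD and NC. The 9 log2 fold changes of KD over NC lay between -0.042 and 0.044. With edgeR's quasi-likelihood test and Benjamini-Hochberg adjustment over 16929 tested genes, 0 of the 9 passed an adjusted p of 0.05, and all 9 had an adjusted p of 1.00. The background was 0% of all tested genes. DESeq2 and limma-voom also called 0 of the 9, and 0 had an unadjusted p under 0.05 in edgeR, against 52 of all tested genes. These fits had no block, and the lowest edgeR quasi-likelihood adjusted p of any gene was 0.9999. The biological coefficient of variation (spread between libraries beyond counting error) was 0.372 in edgeR without a block and 0.0683 with one. Calls of 0 without the block are therefore weak evidence about any gene. In a paired fit, which takes the replicate number as a blocking term, 0.171% of tested genes passed (29 genes) and again 0 of the 9, whose smallest unadjusted p was 0.339 (that of FKBP5). In that fit 4.97% of tested genes had an unadjusted p under 0.05.

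The paired fit limited how large a change could have been missed, provided that the replicate numbers mark pairs. The labels do not state such pairs, which were taken from correlations in these same data. In deviations from the group means, KD replicate 2 correlated with NC replicate 3 (0.590) nearly as well as with NC replicate 2 (0.619). No fit with exchanged numbers was run. The paired 95% intervals lay inside a 1.5-fold change in either direction for 9 of the 9 genes, against 66.6% of all tested genes. This count was 9 with any 1 of the 3 pairs left out. Interval width depends on the count level, and the share of all tested genes was not matched for level. The widest interval, that of TPMT, ran from 0.876-fold to 1.22-fold. The fit moderates the variance of each gene across all tested genes, so these intervals do not rest on the 3 pairs of that gene alone. Without the block 8 of the 9 intervals lay inside 1.5-fold, and that of FPGS ran from 0.640-fold to 1.53-fold. That count fell to 5 without KD replicate 2, 5 without KD replicate 3 and 4 without NC replicate 3. The KD and NC libraries overlapped for all 9 genes, where 3.43% of tested genes had groups that did not overlap (1.67% with KD higher and 1.77% with KD lower). For 7 of the 9 this overlap was fixed by replicate 1, whose KD and NC libraries both lay on the same side of the rest. The difference had the same sign in all 3 pairs for NR3C1, FKBP5 and HPRT1, 3 of 9 against 25.7% of tested genes. Without both replicate 1 libraries, and without KD replicate 3, again 0 of the 9 passed (lowest adjusted p 0.980 over every alternative run).

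**Figure D1:**
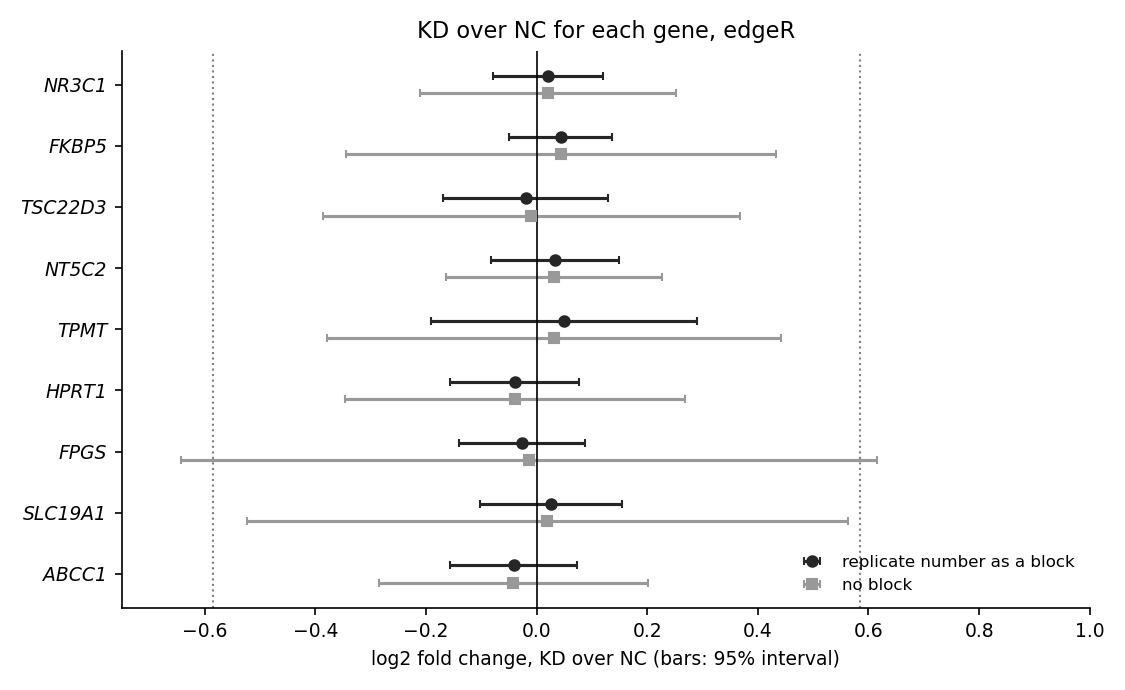
Log2 fold change of KD over NC (horizontal axis) for each of the 9 genes, from edgeR fits with the replicate number as a block (dark circles) and without it (grey squares). Bars are 95% intervals, dotted lines mark a 1.5-fold change, and every interval includes 0.

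The libraries were checked before the genes were described. Gene counts totalled 16531673 to 26694160 in KD and 14750579 to 24186646 in NC. Replicate 1 of KD and of NC stood apart from the rest, with 50.03% (KD) and 48.6% (NC) of their records outside annotated features, against 11.3% to 17.3% in the other 4. In KD replicate 3 multiple alignments made up 31.5% of records, where the other libraries had at most 17.3%. Of 12 B-cell precursor markers 11 had a mean above 1 CPM (counts scaled to library size), with summed levels of 1946 to 2577 CPM in KD and 2010 to 2583 CPM in NC, and DNTT, the marker below that limit, averaged 0.272 CPM in KD and 0.595 CPM in NC. RAG1 and BLNK passed that limit only through replicate 1. In replicates 2 and 3 RAG1 had 0.471 and 0.630 CPM in KD and 0.565 and 0.393 CPM in NC. BLNK had 0.118 and 0.420 CPM in KD and 0.217 and 0.306 CPM in NC there. The T-cell genes CD3D, CD3E, CD3G, CD2 and CD8A had 0.957 to 3.55 CPM in KD replicate 1 and 1.55 to 2.92 CPM in NC replicate 1, and at most 0.0525 CPM in KD and 0.130 CPM in NC in the other libraries, while TRAC averaged 84.7 CPM in KD and 82.2 CPM in NC. Erythroid markers summed to at most 0.957 CPM in KD and 1.68 CPM in NC, with HBA1 and AHSP at 0 outside replicate 1. Monocyte and granulocyte markers summed to 23.8 to 28.7 CPM in KD and 21.9 to 29.1 CPM in NC, mostly from CSF1R (means of 17.7 CPM in KD and 18.4 CPM in NC). Epithelial and fibroblast markers summed to 23.1 CPM in KD replicate 1 and 22.9 CPM in NC replicate 1, against 4.83 and 5.88 CPM in the other KD and 3.61 and 3.89 CPM in the other NC libraries. The part of these markers in the replicate 1 values of the members was not tested. In bulk RNA a smaller number of cells that express a gene cannot be told apart from less of its RNA per cell.

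Compared per length, the 9 genes covered a wide range of levels, and all were expressed. On the scale of CPM per kb of annotated exon, HPRT1 was highest, at 40.6 ± 4.83 in KD and 41.8 ± 4.62 in NC (mean ± SD of 3 libraries in each group). FPGS followed at 29.6 ± 8.77 in KD and 29.9 ± 7.13 in NC, and FKBP5 at 28.1 ± 4.30 in KD and 27.2 ± 4.03 in NC. NR3C1 stood at 16.3 ± 1.02 in KD and 16.03 ± 0.815 in NC, NT5C2 at 14.6 ± 0.231 in KD and 14.3 ± 0.556 in NC, and ABCC1 at 12.6 ± 0.996 in KD and 13.0 ± 0.843 in NC. TSC22D3 had 7.47 ± 1.37 in KD and 7.52 ± 0.933 in NC. The lowest were SLC19A1, with 5.75 ± 1.23 in KD and 5.67 ± 1.44 in NC, and TPMT, with 4.29 ± 0.344 in KD and 4.20 ± 0.938 in NC.

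Some neighbours in this order did not separate. FPGS was above FKBP5 in 4 of 6 libraries and SLC19A1 above TPMT in 4 of 6. In both cases the exceptions were the replicate 1 libraries, and the order of the means was the same without them and was the same in KD as in NC. HPRT1 over FPGS, NT5C2 over ABCC1 and TSC22D3 over SLC19A1 held in 6 of 6 libraries although the ranges of each pair overlapped. FKBP5 over NR3C1, NR3C1 over NT5C2 and ABCC1 over TSC22D3 held with ranges that did not overlap. Against 16266 tested genes with an annotated length, the NC level of HPRT1 was at percentile 94.1, that of NR3C1 at 82.4 and that of TPMT at 51.9. Exon lengths come from GENCODE 29 and count every annotated exon, so a gene with many unused exons is understated. They exceed the longest annotated transcript unequally, with 9998 against 3811 bases for SLC19A1, 3931 against 2279 for FPGS and 1624 against 1407 for HPRT1. For TPMT both are 3181. The order and its separations therefore hold for this exon length only, and an order by transcript length was not computed.

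**Figure D2:**
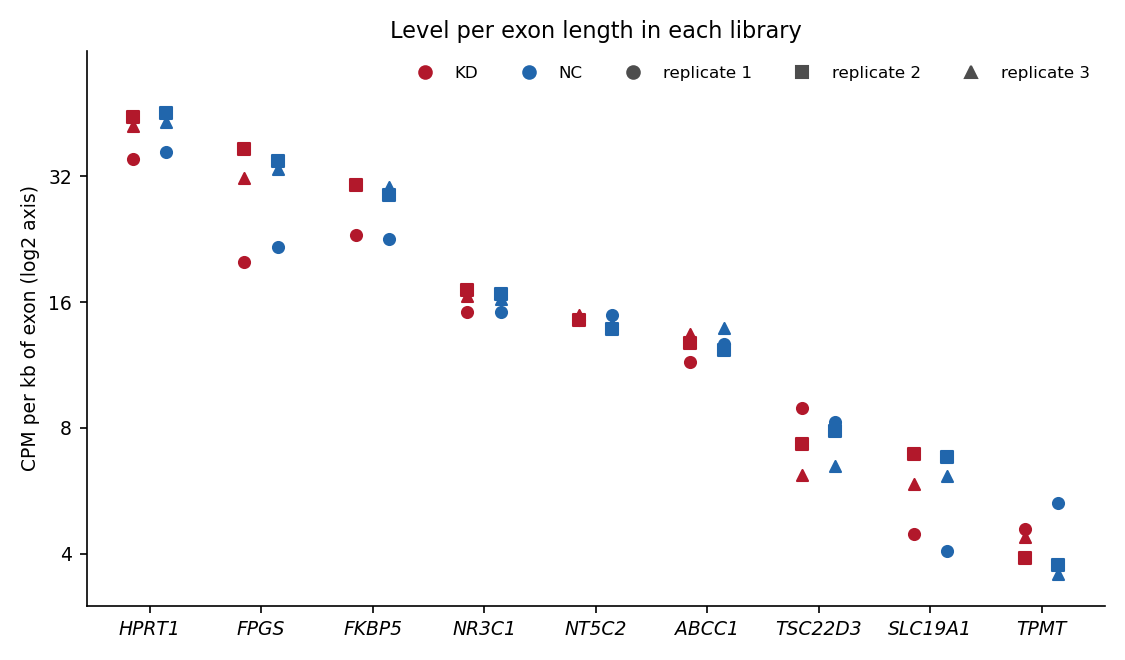
Level per exon length (vertical axis, CPM per kb, log2 axis) of each gene in every library, ordered by the NC mean, with KD in red left of NC in blue and a symbol for each replicate number. HPRT1 is highest and TPMT lowest, and KD and NC lie over each other for every gene.

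Promoter sequences are shown for the genes at both ends of this order and for the receptor targets, as annotated windows. HPRT1 has 1 such window, TPMT and FKBP5 have 2 each and TSC22D3 has 4, so the levels cannot be tied to the windows printed. RefSeq windows on GRCh38.p14 (250 bases before to 50 after an annotated start) matched 8 of the 9 genes, with 26 windows in all. Each was searched on both strands for GGGCGG (the GC box bound by SP1-type factors), TATAAA (the TATA box), CCAAT (the box bound by NF-Y), AGAACA (the hexamer of the glucocorticoid response element) and the full element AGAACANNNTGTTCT, an inverted repeat of that hexamer, with overlapping matches counted separately. Capitals mark GGGCGG or its reverse complement and TATAAA or its reverse complement.
HPRT1, chrX:134459915-134460214, plus strand: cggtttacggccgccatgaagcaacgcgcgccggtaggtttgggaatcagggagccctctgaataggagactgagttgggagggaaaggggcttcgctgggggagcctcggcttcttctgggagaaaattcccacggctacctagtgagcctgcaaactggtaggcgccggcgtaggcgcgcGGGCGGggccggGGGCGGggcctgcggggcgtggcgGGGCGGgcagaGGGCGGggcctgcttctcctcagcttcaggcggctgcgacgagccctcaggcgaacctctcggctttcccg
TPMT, chr6:18155120-18155419, minus strand: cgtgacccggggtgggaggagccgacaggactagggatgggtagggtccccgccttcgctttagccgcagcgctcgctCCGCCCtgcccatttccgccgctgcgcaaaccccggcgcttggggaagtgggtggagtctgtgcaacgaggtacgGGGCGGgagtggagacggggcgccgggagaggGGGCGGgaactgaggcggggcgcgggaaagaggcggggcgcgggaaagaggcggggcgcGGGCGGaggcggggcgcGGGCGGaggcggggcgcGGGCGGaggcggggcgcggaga
FKBP5, chr6:35688866-35689165, minus strand: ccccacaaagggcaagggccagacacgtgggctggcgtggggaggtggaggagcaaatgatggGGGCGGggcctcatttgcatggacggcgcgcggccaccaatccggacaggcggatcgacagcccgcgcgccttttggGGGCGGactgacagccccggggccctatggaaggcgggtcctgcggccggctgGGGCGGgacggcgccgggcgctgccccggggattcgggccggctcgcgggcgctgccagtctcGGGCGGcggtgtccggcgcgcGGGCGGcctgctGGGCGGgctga
TSC22D3, chrX:107717013-107717312, minus strand: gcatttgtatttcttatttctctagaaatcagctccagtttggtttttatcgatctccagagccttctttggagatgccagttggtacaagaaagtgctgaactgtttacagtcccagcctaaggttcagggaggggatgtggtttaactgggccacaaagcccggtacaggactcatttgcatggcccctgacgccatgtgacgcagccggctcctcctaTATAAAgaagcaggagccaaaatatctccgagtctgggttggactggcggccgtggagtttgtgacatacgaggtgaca

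The HPRT1 window held 4 GC boxes and 30 CpG dinucleotides and no TATAAA. The TPMT window, from the gene with the lowest level, held 6 GC boxes and 42 CpG dinucleotides, and the FKBP5 window shown held 6 and 38. The TSC22D3 window held 1 TATAAA and no GC box, while the other 3 windows of that gene held 1 or 2 GC boxes and no TATAAA. A GC box was present in 18 of the 26 windows (69.2%) and in 44.9% of all 34943 RefSeq windows of this length, TATAAA in 2 (7.69%) and in 11.6% of all, and CCAAT in 8 (30.8%) and in 34.6% of all. AGAACA was present in 4 windows (15.4%), 1 each of FKBP5, NT5C2, FPGS and SLC19A1, against 14.8% of all windows. The FKBP5 match lay in the window of that gene that is not shown. Some of the 26 windows overlap, among them those of TPMT, so the shares count some bases more than once. The full element was in 0 of the 26 windows and in 1 of all windows. These matches describe the windows only, and which start site SEM cells use was not measured.

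In the following, the values of the 3 KD and the 3 NC libraries stand in the order of replicates 1, 2 and 3. The glucocorticoid receptor gene varied little over the 6 libraries. NR3C1 (ENSG00000113580.15, chromosome 5, 143277931 to 143435512, minus strand, GRCh38) had 139, 157 and 152 CPM in the KD libraries (2466, 4000 and 2890 counts), against 139, 153 and 149 CPM in the NC libraries (2231, 3521 and 3414 counts). Replicate 1 was the lowest library in each group, and the groups overlapped. The paired log2 fold change was 0.021 (95% interval -0.079 to 0.12), and the highest library was 1.13 times the lowest.

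FKBP5 encodes an immunophilin that lowers the hormone affinity of the receptor complex and is itself induced by the receptor. FKBP5 (ENSG00000096060.15, chromosome 6, 35573585 to 35728583, minus strand) had 246, 324 and 326 CPM in the KD libraries, against 241, 308 and 320 CPM in NC. It was the member with the most counts, 4365 to 8238 in KD and 3870 to 7329 in NC. Its KD library was the higher in each pair, with log2 differences of 0.031, 0.073 and 0.026. The groups overlapped, with an SD of 45.7 CPM in KD and 42.9 CPM in NC around means of 299 CPM in KD and 290 CPM in NC. The paired log2 fold change was 0.043 (95% interval -0.049 to 0.14) and did not pass (edgeR quasi-likelihood adjusted p 1.00).

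TSC22D3 encodes GILZ, a leucine zipper protein induced by glucocorticoids that acts on inflammatory transcription. TSC22D3 (ENSG00000157514.18, chromosome X, 107713221 to 107777342, minus strand) had 42.4, 35.0 and 29.4 CPM in the KD libraries, against 39.3, 37.4 and 30.8 CPM in NC. In each group replicate 1 was the highest and replicate 3 the lowest library, and the groups overlapped. KD was higher in pair 1 (0.11) and lower in pairs 2 and 3 (-0.097 and -0.068), and the paired log2 fold change was -0.020 (95% interval -0.17 to 0.13). In this fit the receptor targets FKBP5 and TSC22D3 had estimates of opposite sign, and neither passed. The sign was not stable for TSC22D3, whose paired estimate was 0.0078 without replicate 2 and 0.0068 without replicate 3 of both groups. An opposite-strand gene, NCBP2L, overlaps 71 bases of its exons and had 14, 0 and 0 counts in KD and 10, 0 and 0 in NC.

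**Figure D3:**
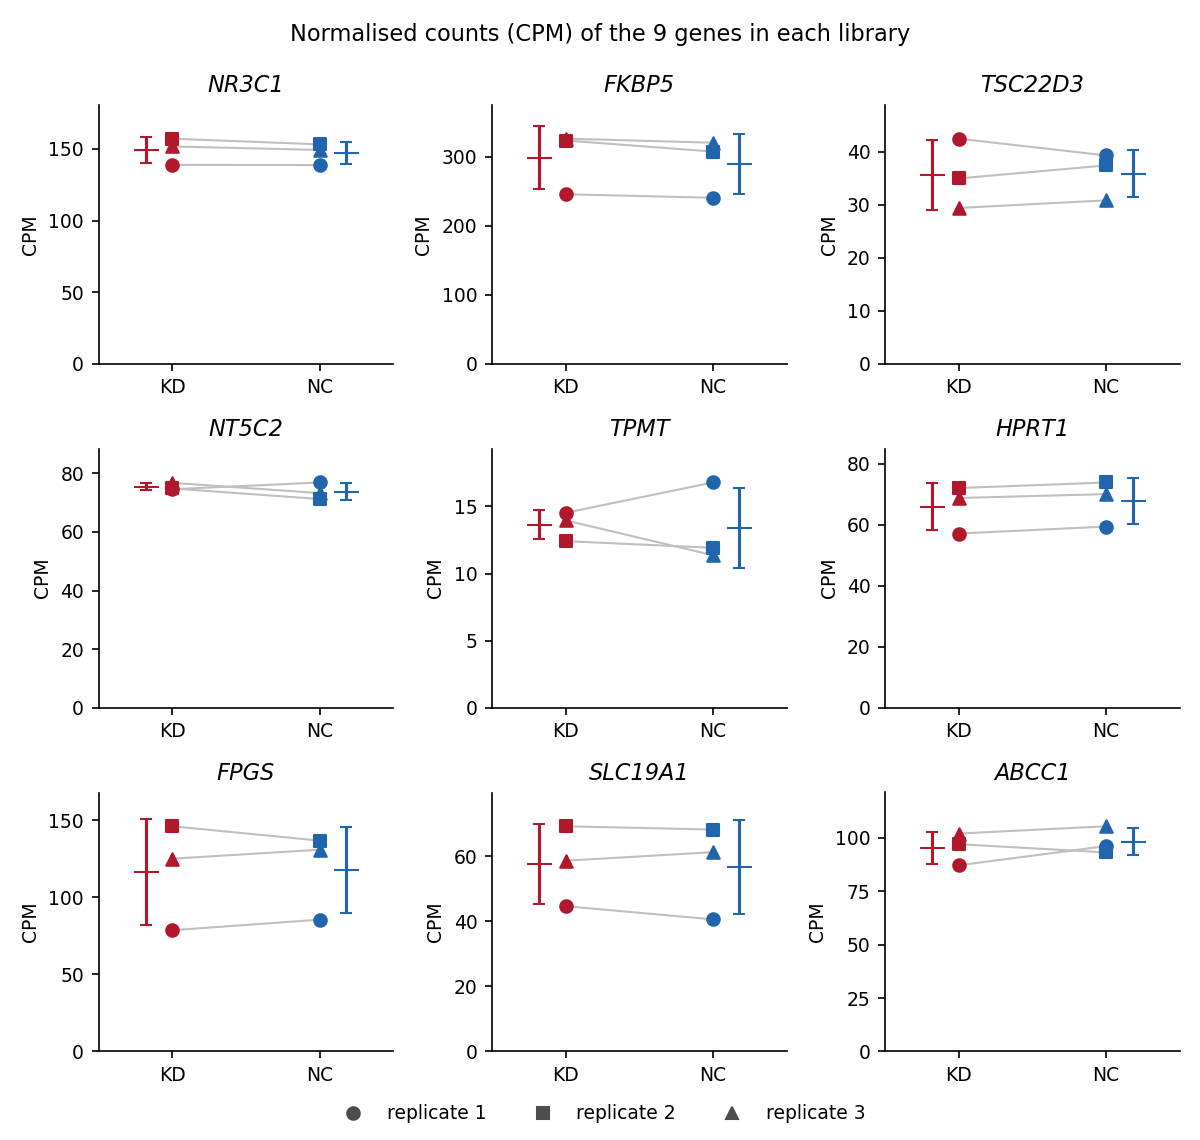
Normalised counts (CPM, vertical axes start at 0) of the 9 genes in every library, KD in red left of NC in blue, with grey lines joining libraries of the same replicate number and bars for the mean and SD (n = 3 each). The replicate 1 libraries are the lowest of both groups for NR3C1, FKBP5, HPRT1, FPGS and SLC19A1 and the highest for TSC22D3 and TPMT.

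Among the thiopurine genes, HPRT1 encodes hypoxanthine-guanine phosphoribosyltransferase, the purine salvage enzyme that activates mercaptopurine. HPRT1 (ENSG00000165704.15, chromosome X, 134460153 to 134520513, plus strand) had 57.1, 72.1 and 68.8 CPM in the KD libraries, against 59.4, 73.9 and 70.1 CPM in NC. KD was the lower library in each pair, with log2 differences of -0.057, -0.036 and -0.027. The groups overlapped and the paired log2 fold change was -0.039 (95% interval -0.16 to 0.077). Its processed pseudogenes HPRT1P1, HPRT1P2 and HPRT1P3 had 0 to 2 counts in every KD library and 0 to 5 in every NC library, beside 956 to 1835 counts for HPRT1 itself.

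TPMT encodes thiopurine methyltransferase, which inactivates thiopurines by methylation. TPMT (ENSG00000137364.5, chromosome 6, 18128311 to 18155074, minus strand) had 14.5, 12.4 and 13.96 CPM in the KD libraries, against 16.8, 11.9 and 11.4 CPM in NC. These values rest on 258, 316 and 266 counts in KD and 270, 274 and 260 counts in NC, the fewest of the 9. The pairs went both ways, with log2 differences of -0.21, 0.058 and 0.29, the last being the largest of any member in any pair. The paired log2 fold change was 0.049 (95% interval -0.19 to 0.29). The 4 TPMT pseudogenes had 0 to 3 counts in KD libraries and 0 to 4 in NC libraries.

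NT5C2 encodes a cytosolic nucleotidase that removes the phosphate from thiopurine nucleotides, and activating mutations of it are known from relapsed lymphoblastic leukaemia. NT5C2 (ENSG00000076685.19, chromosome 10, 103088017 to 103193306, minus strand) had 74.6, 74.9 and 76.8 CPM in the KD libraries, against 76.9, 71.2 and 73.3 CPM in NC. The groups overlapped, and it was the steadiest of the 9, with a coefficient of variation of 2.88% over the 6 libraries. The paired log2 fold change was 0.033 (95% interval -0.082 to 0.15). CNNM2, on the opposite strand, overlaps 1892 bases of annotated NT5C2 exon and had 126 to 232 counts in KD and 160 to 229 counts in NC. Without a known strand setting, reads in that overlap cannot be assigned to either gene with certainty.

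For methotrexate, SLC19A1 encodes the reduced folate carrier through which the drug enters. SLC19A1 (ENSG00000173638.19, chromosome 21, 45493572 to 45544411, minus strand) had 44.6, 69.2 and 58.6 CPM in the KD libraries, against 40.6, 68.2 and 61.3 CPM in NC, with overlapping groups and replicate 1 lowest in both. KD was higher in pairs 1 and 2 (0.14 and 0.021) and lower in pair 3 (-0.063), and the paired log2 fold change was 0.027 (95% interval -0.10 to 0.16). COL18A1, on the opposite strand, overlaps 1401 bases of its exons. It had 132, 5 and 5 counts in the KD libraries and 112, 5 and 4 in NC, beside at least 653 counts for SLC19A1.

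FPGS encodes folylpolyglutamate synthase, which adds the glutamate tail. FPGS (ENSG00000136877.15, chromosome 9, 127794597 to 127814327, plus strand) had 78.6, 146 and 125 CPM in the KD libraries, against 85.4, 137 and 131 CPM in NC. It varied most of the 9, with a coefficient of variation of 24.0% over the 6 libraries, and both replicate 1 libraries lay below the other 4. KD was higher in pair 2 only (0.095, against -0.12 and -0.065 in pairs 1 and 3). The paired log2 fold change was -0.026 (95% interval -0.14 to 0.087).

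ABCC1 encodes the multidrug resistance protein MRP1, an efflux pump that exports methotrexate among other drugs. ABCC1 (ENSG00000103222.20, chromosome 16, 15949577 to 16143074, plus strand) had 87.1, 96.9 and 102 CPM in the KD libraries, against 96.1, 93.1 and 105 CPM in NC. The groups overlapped. KD was lower in pairs 1 and 3 (-0.14 and -0.047) and higher in pair 2 (0.059). The paired log2 fold change was -0.041 (95% interval -0.16 to 0.073).

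Replicate 1 separated from the other libraries for most of these genes, and KD and NC separated for none of the 9. For 7 of the 9 genes both replicate 1 libraries lay outside the range of the other 4, on the same side. The same held for 60.6% of all tested genes. Such a shift forces the KD and NC ranges to overlap, so for these 7 genes the overlap is no separate result. In mean log2 CPM, replicate 1 minus replicates 2 and 3, FPGS differed by -0.71, SLC19A1 by -0.59, FKBP5 by -0.39 and HPRT1 by -0.29. TSC22D3 differed by 0.31 and TPMT by 0.33, and the median of all tested genes was 0.013. NR3C1 (-0.14), ABCC1 (-0.12) and NT5C2 (0.033) differed least. Only 2.66% of tested genes had a lower value than FPGS and 4.62% a lower one than SLC19A1.

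FPGS and SLC19A1 also have the most GC-rich transcripts of the 9, at 63.8% and 64.4% GC in the longest annotated transcript, against 39.1% to 54.9% in the other 7 and a median of 47.9% over tested genes. Across 16266 tested genes, which are not independent replicates, GC content and the replicate 1 difference had a Pearson r of 0.040 and a Spearman rho of -0.077. The part of GC content in the values of FPGS and SLC19A1 was not tested. In 1555 protein-coding genes with 0 counts in the other 4 libraries, the replicate 1 libraries held 0.179 CPM per kb in KD and 0.174 CPM per kb in NC, pooled over the genes. For TPMT the replicate 1 levels were 4.57 CPM per kb in KD and 5.28 in NC, and 3.57 to 4.39 in the other 4 libraries.

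**Figure D4:**
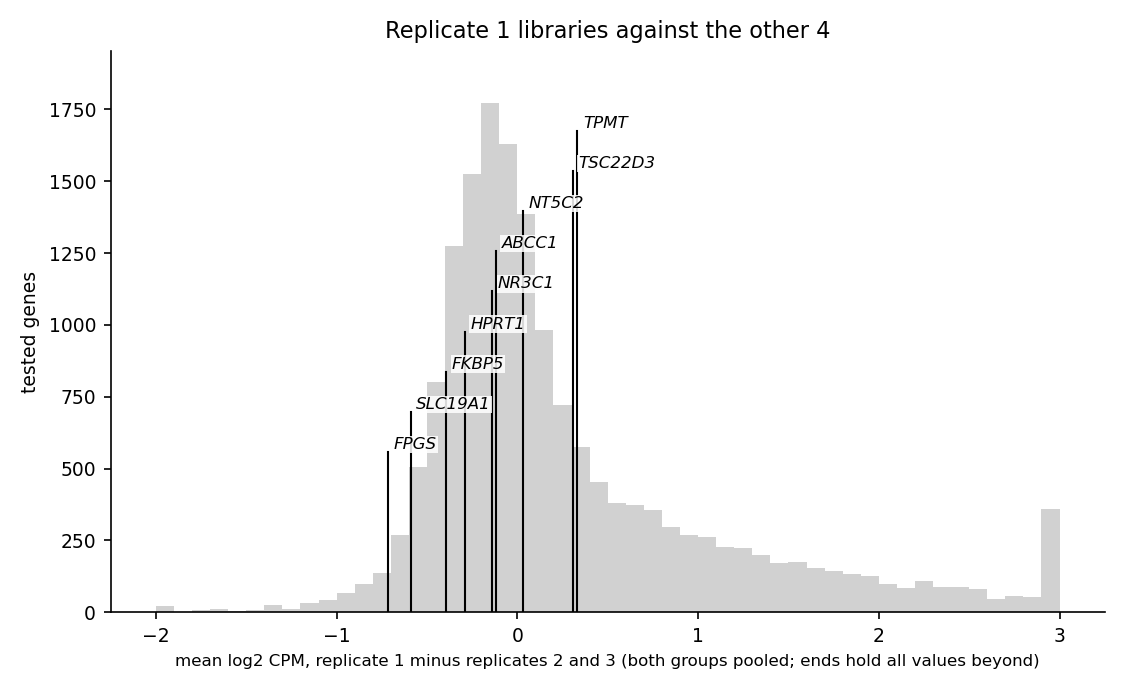
Distribution over all tested genes of the mean log2 CPM in both replicate 1 libraries minus that in the other 4 (horizontal axis; vertical axis, number of tested genes), with the 9 genes marked by lines whose heights carry no value. FPGS and SLC19A1 lie in the lower tail, at -0.71 and -0.59, and TPMT and TSC22D3 to the right, at 0.33 and 0.31.

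Genes with the most similar profile across the 6 libraries were sought among 10461 other tested genes with a mean of at least 5 CPM, as the root mean square difference of log2 CPM after centring each gene. These profiles share the libraries, their depth and the shift of replicate 1, and the first principal component, which separates replicate 1, held 78.8% of the variance of log2 CPM. For NR3C1 the nearest were TLK2 (0.012) and PMPCB (0.013), and for FKBP5 TALDO1 was named (0.013). TSC22D3 was nearest to PDXK (0.041) and MXD1 (0.048), TPMT to DEGS1 (0.041) and TRIB1 (0.047), HPRT1 to DHX9 (0.0084) and SURF4 (0.012), and NT5C2 to ATP6V1E1 (0.0082) and LIN9 (0.016). For FPGS they were ZFP36L2 (0.026) and CEBPA (0.033), for SLC19A1 NPLOC4 (0.028) and CRIM1 (0.032), and for ABCC1 TRIM25 (0.021) and SOX11 (0.023). Among the members themselves NR3C1 and HPRT1 were closest (0.078), while FPGS and SLC19A1 were 0.099 apart. The NR3C1 profile lay 0.069 from a flat one, so it was nearer to no variation than to HPRT1.

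Other genes of these drug pathways were taken from 7 lists of 140 genes, of which 125 were tested. Without the block 0 of the 125 passed and 0 had an unadjusted p under 0.05 (edgeR quasi-likelihood), and with the block 0 passed and 5 (4.00%) had an unadjusted p under 0.05, against 4.97% of all tested genes. KD and NC did not overlap for 0 of the 125, against 3.43% of all tested genes. Overlap is fixed for any gene whose replicate 1 libraries both lie on the same side of the rest, as for 60.6% of all tested genes. How many of the 125 this covers was not counted, so their overlap is no separate result. The paired median log2 fold change was -0.0015 over the 125 genes and 0.021 over the 9 members, beside -0.0051 over all tested genes. Paired estimates were above 0 for 61 of the 125, 5 of the 9 members and 8133 of all 16929 tested genes. Paired intervals inside 1.5-fold were found for 113 of the 125, against 66.6% of all tested genes, a share not matched for count level.

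Of the glucocorticoid lists, receptor chaperones and coregulators had 22 of 22 genes tested and 0 called, with a paired median of 0.018 and 16 estimates above 0. HSP90AA1, the chaperone that holds the receptor, had 2689, 2569 and 2647 CPM in the KD libraries, against 2577, 2459 and 2343 CPM in NC, a paired log2 fold change of 0.10 (edgeR quasi-likelihood adjusted p 0.966). The co-repressor HDAC3 stood at 0.089. Other glucocorticoid targets had 22 of 25 genes tested and 0 called, with a paired median of -0.018 and 8 estimates above 0. The NF-kB inhibitor NFKBIA stood at 0.14 (edgeR quasi-likelihood adjusted p 0.982) and the thioredoxin inhibitor TXNIP at -0.096.

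Of the thiopurine lists, uptake, activation and inactivation had 22 of 24 genes tested and 0 called, with a paired median of -0.013 and 9 estimates above 0. The pyrimidine nucleotidase NT5C3A had 12.7, 18.5 and 19.6 CPM in the KD libraries, against 14.2, 22.3 and 20.3 CPM in NC, a paired log2 fold change of -0.16 that did not pass, and the adenylosuccinate synthase ADSS2 stood at -0.081. DNA mismatch repair, which acts on thioguanine in DNA, had 11 of 11 tested and 0 called. Its paired median was -0.025, with 2 estimates above 0, and the exonuclease EXO1 stood at -0.11 and the ligase LIG1 at -0.063.

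Of the folate genes 19 of 24 were tested and 0 called, with a paired median of -0.0023 and 9 estimates above 0. The methionine synthase reductase MTRR had 43.6, 49.6 and 46.9 CPM in the KD libraries, against 49.9, 51.7 and 49.1 CPM in NC, a paired log2 fold change of -0.10 that did not pass. Of the efflux transporters 9 of 11 were tested and 0 called, with a paired median of -0.031 and 4 estimates above 0. ABCC10 stood at -0.17, and ABCG2, at 2.702, 0.196 and 0.157 CPM in the KD libraries and 3.05, 0.609 and 0.437 CPM in NC, at -0.74 with a 95% interval from -1.64 to 0.16. Outside replicate 1 ABCG2 was under 1 CPM in every library, so its estimate rests on few counts there. Targets and handling of other leukaemia drugs had 20 of 23 tested and 0 called, with a paired median of 0.028 and 13 estimates above 0. GSTP1, a glutathione transferase, stood at 0.11 and the ribonucleotide reductase subunit RRM2B at -0.19 (edgeR quasi-likelihood adjusted p 0.872 and 0.891).

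**Figure D5:**
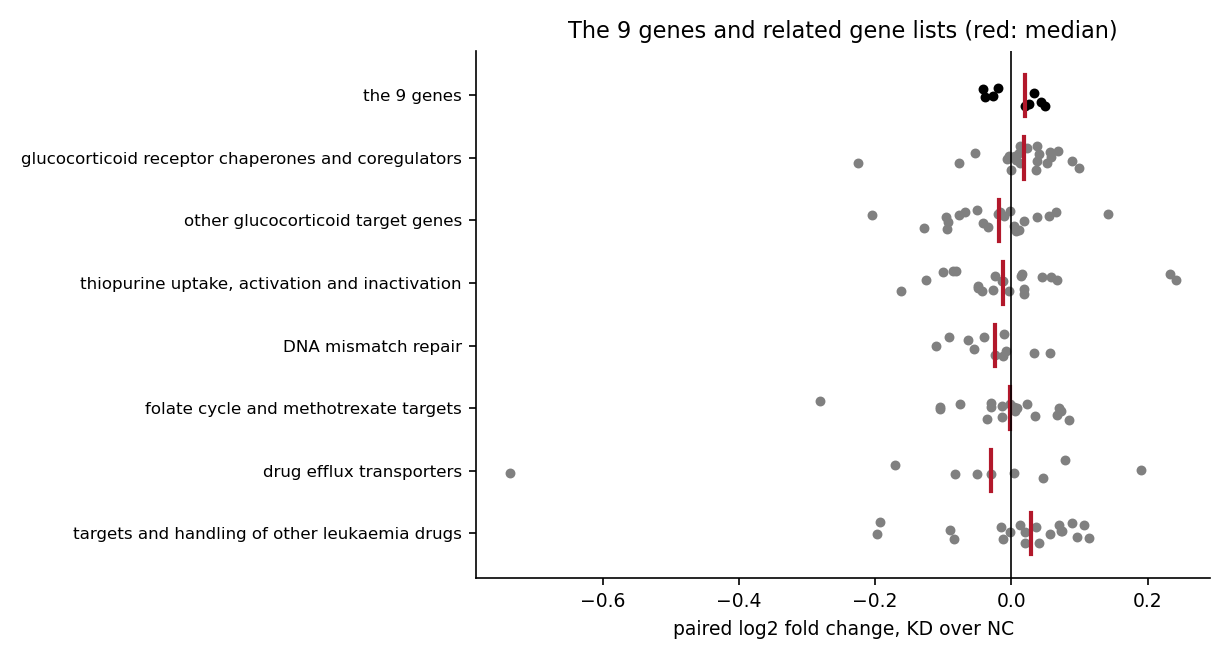
Paired log2 fold change of KD over NC (horizontal axis) of the 9 genes (top, black) and of the tested genes of 7 related lists (grey), 1 point per gene, with the median of each row in red. Most points lie within 0.2 of 0, and the point at -0.74 is ABCG2, which had few counts outside replicate 1.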

How the data were processed

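Total RNA of 6 SEM libraries (3 KD, 3 NC) was counted per gene. The deposited files hold raw counts per Ensembl gene, 1 file per library. The tools named per the submitters' processing notes are HTSeq 0.11.1, STAR 2.7.10a, FastQC 0.11.8 and DESeq2, with build hg38. Annotation release and strand setting were not given in the sources used here. The files have 62703 gene IDs and 5 summary lines, which were left out of library sizes (gene counts were 33.5% to 60.2% of records). Symbols were found for 42303 IDs; a repeated symbol took the ID with the highest mean count. Coordinates, exon lengths and transcripts come from GENCODE 29 (GRCh38).

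The main fit was edgeR 4.0.16 in R 4.3.3 (filterByExpr, TMM, robust quasi-likelihood F test, group as the only term, Benjamini-Hochberg adjusted p under 0.05), tested on simulated counts first. Alternatives were the replicate number as a block, DESeq2 1.42.0, limma-voom (limma 3.58.1), other size factors, no filter and libraries or pairs left out. CPM uses TMM library sizes, and pair differences are of log2 CPM with a prior count of 2. The totals of gene counts per library set the precision of low genes. The series' design text calls the replicates independent, and chi-square values per degree of freedom of 20.2 to 82.0 between libraries of 1 group exceed counting error.

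Deviations from the group means correlated at 0.889, 0.619 and 0.605 between KD and NC libraries numbered 1, 2 and 3, so the numbers were treated as pairs; the pairing comes from the data, since the labels do not state one, and KD 2 with NC 3 (0.590) and KD 3 with NC 2 (0.553) were nearly as high. Paired intervals use the spread left after fitting those numbers, with the variance of each gene moderated across all tested genes.

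The members and lists were chosen with earlier results of these data known. Named beyond the members were overlapping genes and pseudogene copies, the 2 genes of each list with the smallest paired p (none was called), and the 2 nearest profiles per member; items of this rule that are missing from the text are not reported here.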

Additional observations from a re-analysis of the deposited data

How the results depend on the processing

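No member and no gene of the related lists passed under any of the 15 alternatives (adjusted p of the members 0.980 or higher). Over all tested genes the count of 0 became 29 with the replicate number as a block. With the block and replicate 1, 2 or 3 of both groups left out it became 5, 119 or 73; the fits without replicates 2 and 3 tested 29982 and 29966 genes rather than 16929. Leaving out 1 library without the block gave 0 calls each time. The block changed no call of a member or list gene. The signs of the members' fold changes are not stable, since 38 of 135 alternative estimates turned sign; they ranged from -0.24 to 0.23, both ends from fits with a library left out. The count of members with an interval inside 1.5-fold was 8 without the block and 4 to 7 with 1 library left out, 7 with no filter on low counts and 9 with the block. Ordering the levels by CPM without exon length kept 2 of 9 genes at their place, with FKBP5 and NR3C1 first, since CPM is not divided by length. The orders without replicate 1 and in KD, and the interval counts, were added after seeing the data. TPMT rests on the fewest counts of the members (258 to 316 per library), and FPGS and SLC19A1 had larger standard errors without the block (0.266 and 0.230 on the log2 scale, against 0.173 for TPMT).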
